A study of Homo sapiens with 12 samples.

Results

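The cytosolic heat shock proteins described here are 10 genes of the cytosolic chaperone system, taken from a table of 19973 protein-coding genes by an exact match of their symbols. They are the HSP70 chaperones HSPA1A, HSPA1B and HSPA8, the HSP110 exchange factor HSPH1, the HSP90 pair HSP90AA1 and HSP90AB1, the co-chaperones DNAJB1 and BAG3, and the small heat shock proteins HSPB1 and HSPB8. All 10 were expressed in every library, with 278 to 63815 reads per gene and library, and all 10 passed the filter on low values. RNA was sequenced from 2 human non-small cell lung carcinoma lines, H460 and A549, both labelled wild type and both described in the study as homozygous for inactivating KEAP1 mutations. Each line was either left non-treated (control) or given 10 µM isovalerylspiramycin I (ISP-I), a macrolide of the carrimycin group of antibiotics, for 48 h. There were 3 libraries in each of the 4 groups, the labels give no further agent or allele for any of them, and they name no vehicle and no treatment time for the controls. The labels do not say that the 3 libraries of a group came from separate cultures, so the p-values measure only the spread between these libraries.

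Cytosolic chaperones hold unfolded or client proteins by cycles of ATP binding and release. J-domain proteins such as DNAJB1 deliver clients to HSP70, exchange factors such as HSPH1 and BAG3 let them go, HSP90 matures kinases and receptors that HSP70 hands over, and the small heat shock proteins hold aggregating proteins without ATP. HSPA8 and HSP90AB1 are the constitutive members of their pairs, whereas HSPA1A, HSPA1B, DNAJB1 and HSP90AA1 are classical targets of heat shock factor 1 (HSF1), which binds inverted repeats of a short unit in their promoters.

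The reads assigned to genes ranged from 14225849 to 17874422 per library, and the 3 ISP-I libraries of H460 had the highest median, 16656614. The epithelial keratin genes KRT8, KRT18 and KRT19 were expressed in both lines, but EPCAM and CDH1 were at 0.0473 and 0 FPKM on average in untreated H460, against 1.91 and 4.90 in A549. The summed level of 5 epithelial markers was 355.5 to 431.6 FPKM in H460 control libraries, 327.3 to 414.9 after ISP-I, 924.1 to 1252 in A549 control libraries and 628.1 to 659.2 after ISP-I. Of 6 markers of leukocytes, endothelium and fibroblasts, the sum was at most 7.71 FPKM in any library, and most of that was CD14 in H460 controls. The part of these shifts in the results was not tested. In bulk RNA, fewer cells of a type and less RNA per cell cannot be told apart.

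In H460, the inducible HSP70 genes HSPA1A and HSPA1B, the constitutive HSPA8 and the small heat shock gene HSPB1 were lower after ISP-I, and HSPB8 was higher. In A549 these 5 genes also passed the test, each in its H460 direction, with smaller changes of HSPA1A, HSPA1B, HSPA8 and HSPB8, and BAG3, DNAJB1 and HSP90AB1 fell. A gene was called when its level differed by more than 2-fold with an adjusted p under 0.05 (limma on log2(FPKM + 1), Benjamini-Hochberg over all genes tested). By that rule 1 member was called higher in H460, where 10.5% of all 13423 genes were, and 4 were called lower, where 15.2% were. In A549, 1 member was called higher, against 4.2% of 13705 genes, and 1 was called lower, against 3.51%.

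With the fold left out and only the adjusted p kept, 1 member rose and 5 fell in H460, where 27.6% of all genes rose and 41.5% fell. In A549, 1 member rose and 7 fell, against 30.5% and 27.0% of all genes. The 3 libraries of each group did not overlap for 1 member higher (29.6% of all genes) and 6 lower (43.1%) in H460, and for 1 higher (34.8%) and 7 lower (30.7%) in A549. The median change over the 10 members was -0.50 on the log2 scale in H460 and -0.52 in A549, and over all genes it was -0.15 and 0.02.

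The zero point of H460 depends on the scaling. With median-of-ratios scaling, the median change of all genes in H460 moved by 0.16 to 0.01, and the members moved upward by 0.26 to 0.28. All genes called in H460 then split into 14.4% higher and 11.1% lower, in place of 10.5% and 15.2%, while the members called stayed at 1 higher and 4 lower. The members HSPA1A, HSPA1B, HSPA8, HSPB1 and HSPB8 changed by more than 1 under either scaling, whereas HSPH1, HSP90AB1, DNAJB1 and BAG3 lay between -0.35 and -0.11 and then between -0.07 and 0.16.

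**Figure D1:**
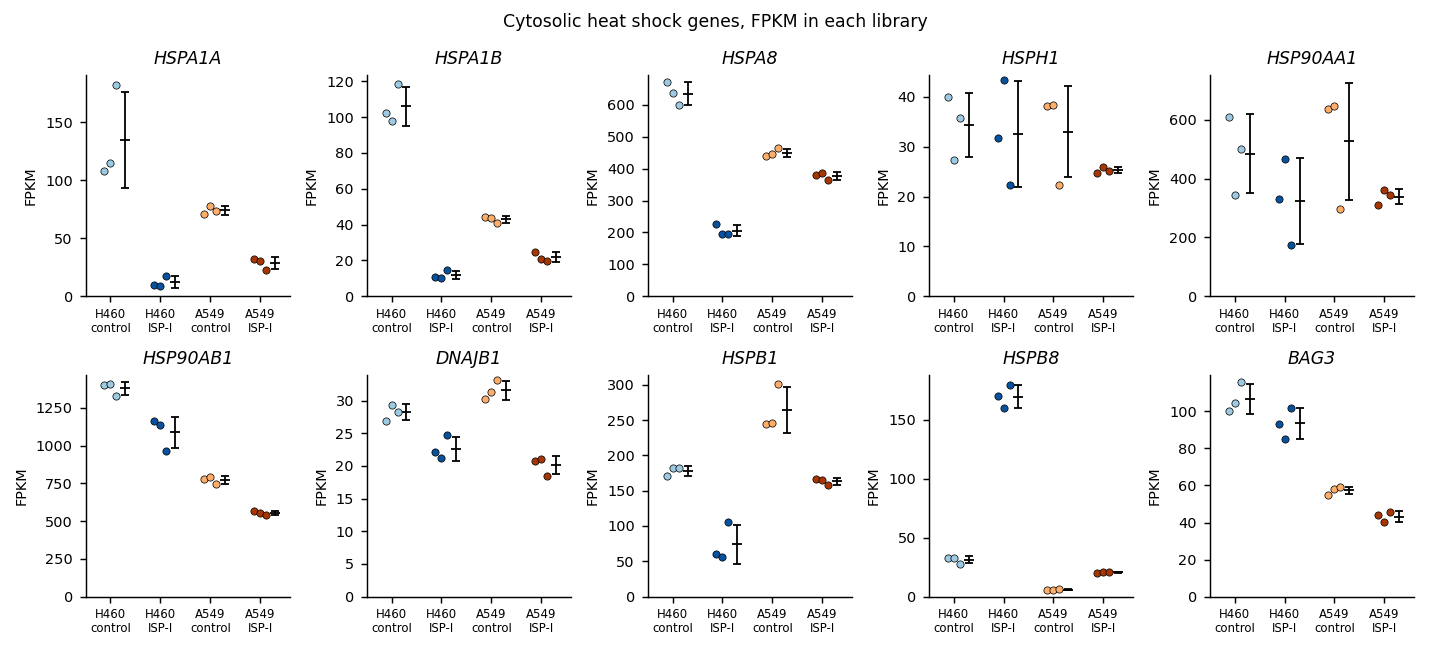
FPKM of each of the 10 genes (linear axis from 0) in the 3 libraries of each group, with the mean and SD beside the points. HSPA1A, HSPA1B, HSPA8 and HSPB1 lie lower and HSPB8 lies higher after ISP-I in both lines, while HSPH1 and HSP90AA1 spread widely within 3 of the 4 groups.

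**Figure D2:**
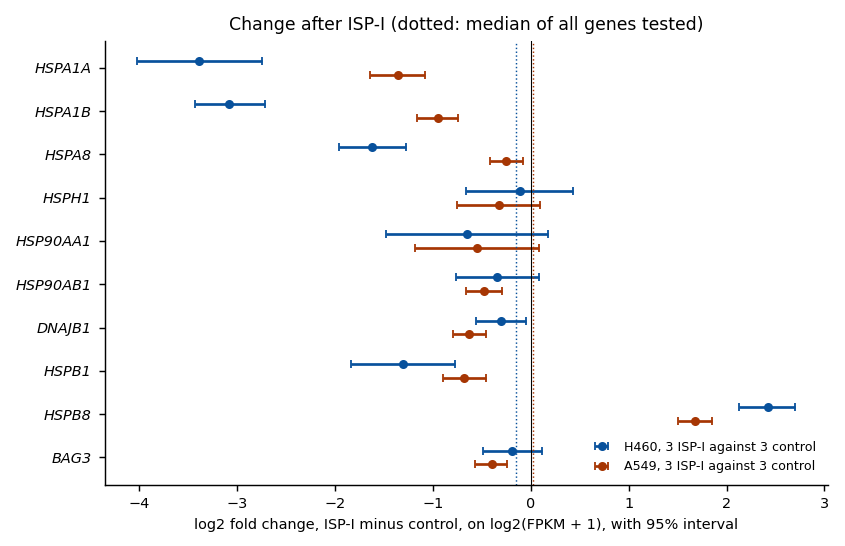
Change of each member after ISP-I on the log2(FPKM + 1) scale, with its 95% interval, in H460 and A549 (3 libraries against 3). The intervals of HSPA1A, HSPA1B, HSPA8 and HSPB8 do not overlap between the lines, and the dotted lines mark the median of all genes tested, -0.15 in H460 and 0.02 in A549.

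The promoter sequence before the start of transcription is shown for the 3 HSP70 genes, for HSP90AA1 and for HSPB8, because the first 3 fell the most in H460, HSPB8 was the member that rose and HSP90AA1 is a classical target of the same factor whose change missed the test. The sequences are the 250 bases before a RefSeq start in GRCh38.p14, written 5′ to 3′ on the strand of the gene. Capitals mark inverted units of 3 bases spaced by 2 (GAANNTTC or TTCNNGAA), the core of the site bound by heat shock factors. For HSP90AA1 the second of its 2 RefSeq starts is shown, since the window of the first held no such pair.

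HSPA1A, chr6:31815293-31815542, plus strand: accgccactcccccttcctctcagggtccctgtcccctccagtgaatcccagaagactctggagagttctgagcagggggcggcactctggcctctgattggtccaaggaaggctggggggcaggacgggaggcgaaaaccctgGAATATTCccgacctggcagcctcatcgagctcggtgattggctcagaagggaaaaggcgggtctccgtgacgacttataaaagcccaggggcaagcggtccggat

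HSPA1B, chr6:31827488-31827737, plus strand: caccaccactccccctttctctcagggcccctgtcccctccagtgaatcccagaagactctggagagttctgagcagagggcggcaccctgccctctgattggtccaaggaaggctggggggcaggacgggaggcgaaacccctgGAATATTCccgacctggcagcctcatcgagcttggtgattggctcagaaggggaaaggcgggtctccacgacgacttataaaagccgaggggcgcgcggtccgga

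HSPA8, chr11:123062137-123062386, minus strand: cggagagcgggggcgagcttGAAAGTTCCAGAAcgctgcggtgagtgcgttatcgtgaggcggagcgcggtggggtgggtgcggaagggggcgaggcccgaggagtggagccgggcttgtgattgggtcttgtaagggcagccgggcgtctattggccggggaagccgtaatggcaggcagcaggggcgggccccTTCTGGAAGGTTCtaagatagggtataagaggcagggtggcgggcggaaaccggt

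HSP90AA1, chr14:102087045-102087294, minus strand: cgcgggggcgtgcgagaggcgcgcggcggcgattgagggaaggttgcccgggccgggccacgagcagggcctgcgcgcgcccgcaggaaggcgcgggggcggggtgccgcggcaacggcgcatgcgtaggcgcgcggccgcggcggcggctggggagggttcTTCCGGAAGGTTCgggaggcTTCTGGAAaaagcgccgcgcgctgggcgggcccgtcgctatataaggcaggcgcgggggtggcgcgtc

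HSPB8, chr12:119178681-119178930, plus strand: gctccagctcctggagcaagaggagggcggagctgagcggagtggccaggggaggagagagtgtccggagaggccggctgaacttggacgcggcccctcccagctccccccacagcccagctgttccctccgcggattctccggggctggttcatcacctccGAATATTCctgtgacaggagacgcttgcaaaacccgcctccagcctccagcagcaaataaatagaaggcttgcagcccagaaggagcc

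HSPA1A and HSPA1B each held 1 match, 106 and 105 bases before the start, and it read the same in both. HSPA8 held 2 separate runs of 3 units, HSP90AA1 held 1 such run beside a further pair at the start shown, and HSPB8 held 1 pair 88 bases before its start and another 4 bases after it. Over the windows from 250 bases before to 50 after a start, 8 of the 10 members had at least 1 pair in some window, and HSPH1 and BAG3 had none in theirs. Counted by window, as some members have several starts, 9 of 15 member windows held a pair, against 13.51% of all 34943 RefSeq windows of that length. A run of 3 units, each inverted against the one before it, was in 3 of the 15 member windows (1 each of HSPA8, HSP90AA1 and HSP90AB1) and in 0.49% of all windows. The letters TATAAA, on either strand, stood in the HSPA1A and HSPA1B windows and in 11.57% of all. The letters CCAAT, on either strand, stood in windows of HSPA1A, HSPA1B, HSPA8, HSP90AA1 and DNAJB1 and in 34.65% of all. These matches describe letters only, and no binding was measured.

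HSPA1A encodes the major inducible HSP70 and lies on chromosome 6 from 31815543 to 31817946 (hg38, plus strand). HSPA1A was at 107.7, 115 and 182.6 FPKM in the H460 control libraries and at 9.77, 8.97 and 17.8 after ISP-I. In A549 it was at 70.9, 78.3 and 73.4 FPKM in controls and at 32.2, 30.4 and 22.9 after ISP-I. Every treated library lay below every control library of its line, and the treated H460 libraries were the lowest of all 12. The mean went from 135.1 ± 41.3 to 12.2 ± 4.87 FPKM in H460 (SD, n = 3), a log2 change of -3.39 (SE 0.278, limma adjusted p = 1.18e-05). In A549 it went from 74.2 ± 3.76 to 28.5 ± 4.96 FPKM, a log2 change of -1.36 (SE 0.122, limma adjusted p = 4.21e-05).

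HSPA1B lies beside it on chromosome 6 from 31827738 to 31830254 and encodes the same protein sequence. HSPA1B was at 102.1, 97.7 and 118.3 FPKM in H460 controls and at 10.6, 10.2 and 14.5 after ISP-I. In A549 it was at 44.1, 43.9 and 40.8 FPKM in controls and at 24.8, 21.0 and 19.6 after ISP-I. The order of the groups was that of HSPA1A, with no overlap between control and treated libraries in either line. HSPA1B fell by 3.08 on the log2 scale in H460 (SE 0.155, limma adjusted p = 1.18e-06) and by 0.95 in A549 (SE 0.0924, limma adjusted p = 6.45e-05), where it stayed inside the 2-fold limit.

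The split between HSPA1A and HSPA1B is uncertain, because their canonical transcripts are 91.9% identical. Of all 150-base stretches, the length of a read, 69.6% of those of HSPA1A and 70.1% of those of HSPA1B occur in another gene, against 0% for each of the other 8 members. HSPA1B exons also overlap a non-coding gene on the same strand over 36.55% of their bases. How reads that fit more than 1 gene were counted is not given in the sources used here. The level of the pair against the other members, and its share of the HSP70 sum, are therefore uncertain too. The summed reads assigned to the pair changed by -3.29 in H460 (limma adjusted p = 4.4e-06) and by -1.21 in A549 (limma adjusted p = 3.75e-05). This sum was called in both lines. If reads that fit both genes were discarded, the sum does not hold them.

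HSPA8 encodes the constitutive HSC70, which also drives chaperone-mediated autophagy and clathrin uncoating, and lies on chromosome 11 from 123057489 to 123063230 (minus strand). HSPA8 was at 670.4, 636.9 and 598.7 FPKM in H460 controls and at 226.2, 195.4 and 196.3 after ISP-I. In A549 it was at 438.8, 445.2 and 463.5 FPKM in controls and at 381.4, 385.7 and 363.9 after ISP-I. The treated libraries lay below the controls in both lines, widely apart in H460 and narrowly in A549. HSPA8 fell by 1.62 in H460 (log2, SE 0.15, limma adjusted p = 2.28e-05). The A549 change was -0.25 (SE 0.0739, limma adjusted p = 0.0189), and it missed the threshold when any 1 of the 3 ISP-I libraries was left out (limma adjusted p = 0.0556 to 0.0951). A non-coding gene on the opposite strand overlaps 11.45% of the HSPA8 exon bases, and the sources used here do not state whether reads were counted by strand.

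The summed level of HSPA1A, HSPA1B and HSPA8 was 876.5 ± 25.2 FPKM in H460 controls and 229.9 ± 16.1 after ISP-I (SD, n = 3). In A549 the sum was 566.3 ± 12 FPKM and 427.3 ± 18.2. The share of HSPA1A and HSPA1B within that sum, which does not depend on library scaling, was 27.4% ± 5.24 in H460 controls and 10.4% ± 3.21 after ISP-I. Its size does depend on the gene length used, as HSPA8 is listed at 4849 bases against 2264 in its canonical transcript. In A549 that share was 20.7% ± 0.893 and 11.7% ± 1.28. The groups of a line did not overlap in either measure, and the exact two-sided permutation p was 0.1 for each, the smallest that 3 libraries against 3 can give.

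HSPH1, which encodes an HSP110 that releases nucleotide from HSP70, lies on chromosome 13 from 31134973 to 31162388 (minus strand). HSPH1 was at 40.0, 27.4 and 35.8 FPKM in H460 controls and at 31.8, 43.4 and 22.3 after ISP-I, so the groups overlapped. In A549 it was at 38.2, 38.3 and 22.4 FPKM in controls and at 24.8, 25.9 and 25.1 after ISP-I. The log2 difference was -0.11 in H460 (95% interval -0.66 to 0.43, limma adjusted p = 0.688) and -0.33 in A549 (-0.75 to 0.09, limma adjusted p = 0.156). The H460 value changed sign to 0.16 with median-of-ratios scaling.

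HSP90AA1, the stress-responsive HSP90, lies on chromosome 14 from 102080742 to 102139699 (minus strand). HSP90AA1 was at 610.1, 343.1 and 499.6 FPKM in H460 controls and at 330.6, 467.9 and 174.3 after ISP-I. In A549 it was at 635.5, 648.4 and 297.3 FPKM in controls and at 310.8, 361 and 344 after ISP-I. The third A549 control was the lowest of the 6 A549 libraries, and in H460 the second ISP-I library was higher than 1 control. The log2 difference was -0.65 in H460 (95% interval -1.48 to 0.18, limma adjusted p = 0.138) and -0.55 in A549 (-1.18 to 0.08, limma adjusted p = 0.116). Neither passed the test, and the intervals leave room for more than a 2-fold fall in either line.

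The wide spread of HSPH1 and HSP90AA1 moved with a library trend in base composition. Over 6646 genes, the deviation of a library from its group mean was correlated with the GC content of the transcript, with Pearson's r from -0.72 in the first H460 control to 0.66 in the third A549 control. HSP90AA1, with a GC content of 41.6%, and HSPH1, with 39.6%, deviated the other way in those libraries. In the third A549 control HSP90AA1 deviated by -0.74 and HSPH1 by -0.49 from the group mean on the log2 scale. In the third H460 ISP-I library, where r was 0.39, they deviated by -0.78 and -0.47, and in the second, where r was -0.56, by 0.64 and 0.46. The deviations of HSPA8 (GC content 45.3%) stayed between -0.08 and 0.14 over all 12 libraries. The A549 ISP-I libraries, with r from -0.10 to 0.08, were also the group in which the pair varied least.

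**Figure D3:**
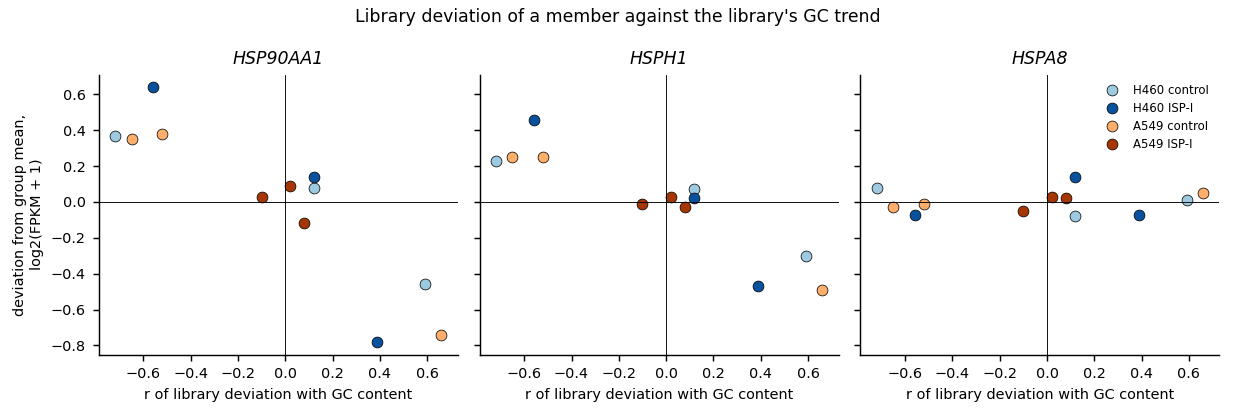
Deviation of HSP90AA1, HSPH1 and HSPA8 from the group mean (log2(FPKM + 1)) in each of the 12 libraries, against the correlation of that library's deviations with transcript GC content over 6646 genes. HSP90AA1 and HSPH1 lie above 0 in the 4 libraries with a correlation of -0.52 or lower and below 0 in the 3 with one of 0.39 or higher, and HSPA8 stays between -0.08 and 0.14.

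The GC trend was then removed, fitted to each library's deviation from the mean of all 12 libraries and not of its group. A GC shift shared by a line or a treatment was therefore removed too. The changes after ISP-I were themselves correlated with GC content, at Pearson's r = -0.23 in H460 and -0.12 in A549 (6619 and 6631 genes). After this removal, HSPH1 changed by -0.44 (limma adjusted p = 0.00976) and HSP90AA1 by -0.63 (limma adjusted p = 0.0312) in A549. Without the third A549 control the values were -0.58 (limma adjusted p = 1.91e-06) and -0.92 (limma adjusted p = 7.84e-07). Without the first or the second A549 control, HSPH1 was at -0.21 in either fit (limma adjusted p = 0.405 and 0.386). HSP90AA1 was then at -0.38 and -0.36 (limma adjusted p = 0.317 and 0.299). In H460 neither passed after removal of the trend (limma adjusted p = 0.362 and 0.0903), and HSP90AA1 passed when the second ISP-I library was left out (-0.97, limma adjusted p = 0.0272). Without the third H460 ISP-I library, HSP90AA1 was at -0.26 and did not pass (limma adjusted p = 0.343). What made the libraries differ in this way was not tested.

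HSP90AB1, the constitutive HSP90, lies on chromosome 6 from 44246166 to 44253888 and had the highest level of the 10 per listed exon length. HSP90AB1 was at 1402.8, 1409.9 and 1329.3 FPKM in H460 controls and at 1160.4, 1135.2 and 966.7 after ISP-I. In A549 it was at 781.5, 790.7 and 743.8 FPKM in controls and at 570.1, 551.9 and 541.9 after ISP-I. The treated libraries lay below the controls in both lines. HSP90AB1 fell by 0.48 in A549 (log2, SE 0.0794, limma adjusted p = 0.00119). The H460 difference was -0.35 (95% interval -0.77 to 0.08, limma adjusted p = 0.126), and it passed when all 12 libraries shared the estimate of spread (limma adjusted p = 0.0186). With median-of-ratios scaling it was -0.07 in H460. HSP90AA1 made up 25.7% ± 5.54 of the summed HSP90 level in H460 controls and 22.2% ± 6.95 after ISP-I, and 39.5% ± 9.47 and 37.9% ± 2.28 in A549 (SD, n = 3, exact permutation p = 0.6 and 1).

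The ratio of HSP90AB1 to HSPA8 FPKM in a library was 2.18 ± 0.072 in H460 controls and 5.29 ± 0.463 after ISP-I. In A549 it was 1.72 ± 0.101 and 1.47 ± 0.0355. The ratio was higher in all 3 treated H460 libraries and lower in all 3 treated A549 libraries than in any control of the line (exact permutation p = 0.1 in each, the smallest possible). The size of the ratio depends on the gene length used. Per length of the canonical transcript, HSP90AB1 and HSPA8 were at 1610.3 and 1360.7 in H460 controls and at 900.4 and 962 in A549 controls.

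DNAJB1, the J-domain partner that hands clients to inducible HSP70, lies on chromosome 19 from 14514769 to 14560391 (minus strand). DNAJB1 was at 26.9, 29.3 and 28.3 FPKM in H460 controls and at 22.1, 21.2 and 24.7 after ISP-I. In A549 it was at 30.3, 31.3 and 33.2 FPKM in controls and at 20.7, 21.0 and 18.5 after ISP-I. The groups did not overlap in either line. DNAJB1 fell by 0.63 in A549 (log2, SE 0.0736, limma adjusted p = 0.000173). It fell by 0.31 in H460 (SE 0.112, limma adjusted p = 0.0369), but the H460 value was -0.03 with median-of-ratios scaling (limma adjusted p = 0.81) and missed the threshold without any 1 of 5 of the 6 libraries. Exons of TECR on the opposite strand overlap 6.41% of its exon bases.

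HSPB1, which encodes HSP27, lies on chromosome 7 from 76302673 to 76304295 and has the highest GC content of the members, 65.3%. HSPB1 was at 170.3, 182.2 and 182.8 FPKM in H460 controls and at 60.6, 56.2 and 106.3 after ISP-I. In A549 it was at 244.5, 245.8 and 301.5 FPKM in controls and at 166.4, 165.8 and 157.9 after ISP-I. The third ISP-I library of H460 stood above the other 2 but below all controls. HSPB1 fell by 1.31 in H460 (log2, SE 0.23, limma adjusted p = 0.001) and by 0.68 in A549 (SE 0.0957, limma adjusted p = 0.000464). With the GC trend removed the H460 value was -0.96 and no longer past 2-fold (limma adjusted p = 0.00176).

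HSPB8, a small heat shock protein that works with BAG3 and HSP70 in chaperone-assisted selective autophagy, lies on chromosome 12 from 119171555 to 119224855. HSPB8 was at 32.6, 32.9 and 27.6 FPKM in H460 controls and at 169.7, 159.6 and 179.1 after ISP-I. In A549 it was at 5.83, 5.28 and 6.18 FPKM in controls and at 20.3, 20.4 and 21.1 after ISP-I. All treated libraries lay above the controls of their line, and every A549 library lay below every H460 control. HSPB8 rose by 2.42 in H460 (log2, SE 0.126, limma adjusted p = 1.32e-06) and by 1.68 in A549 (SE 0.0739, limma adjusted p = 1.44e-06). It was the 1 member called higher in either line.

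BAG3, the exchange factor that joins HSPB8 to HSP70, lies on chromosome 10 from 119651380 to 119677819. BAG3 was at 100.4, 104.4 and 116 FPKM in H460 controls and at 93.4, 85.1 and 101.9 after ISP-I, so the highest treated library exceeded the lowest control. In A549 it was at 55.0, 58.0 and 59.0 FPKM in controls and at 43.9, 40.1 and 45.5 after ISP-I, with no overlap. BAG3 fell by 0.40 in A549 (log2, SE 0.0713, limma adjusted p = 0.00165). The H460 difference was -0.19 (95% interval -0.49 to 0.11, limma adjusted p = 0.216), and it changed sign to 0.09 with median-of-ratios scaling.

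Ratios within a library set HSPB8 against its partners. HSPB8 stood at 0.292 ± 0.0476 of the BAG3 FPKM in H460 controls and at 1.82 ± 0.0585 after ISP-I, and at 0.101 ± 0.00832 and 0.477 ± 0.0271 in A549 (SD, n = 3). Relative to HSPB1 it stood at 0.174 ± 0.021 and 2.44 ± 0.656 in H460, and at 0.0219 ± 0.00172 and 0.126 ± 0.00642 in A549. Treated H460 cells were the 1 group in which HSPB8 exceeded both. The exact permutation p was 0.1 for each ratio in each line, the smallest possible. BAG3 relative to HSPA8 stood at 0.169 ± 0.0225 and 0.456 ± 0.0559 in H460, and at 0.128 ± 0.00252 and 0.115 ± 0.0106 in A549. The sizes of these ratios also depend on the gene length used.

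**Figure D4:**
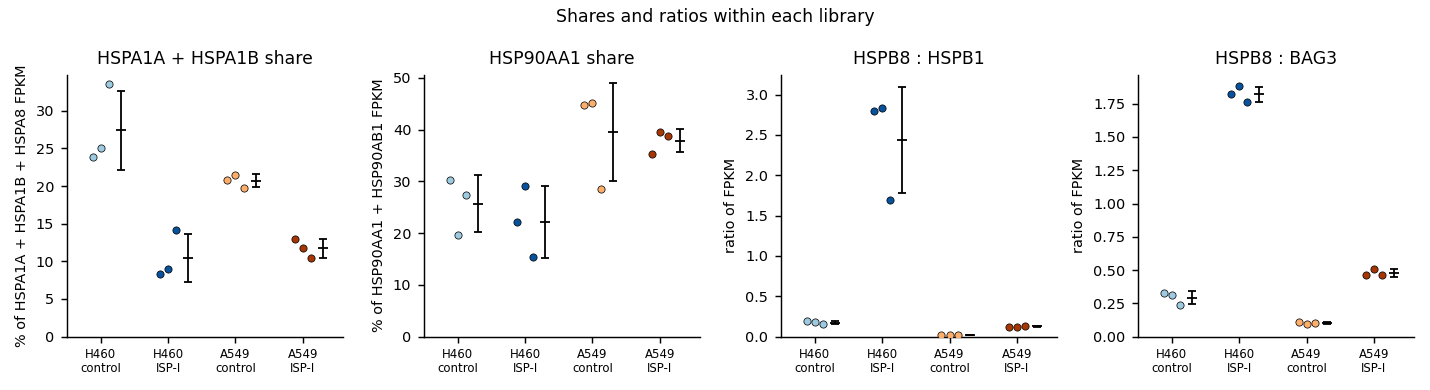
Shares (percent of summed FPKM) and ratios of FPKM between members within each library, with the mean and SD of the 3 libraries per group. The share of HSPA1A and HSPA1B is lower and the ratios of HSPB8 to HSPB1 and to BAG3 are higher after ISP-I in both lines, and the HSP90AA1 share overlaps.

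FPKM here divides by the length of all exons of a gene, so levels are given per that listed length and then, where the order differs, per length of the canonical transcript. In H460 controls the order per listed length ran from HSP90AB1 (1380.7) over HSPA8 (635.3), HSP90AA1 (484.3) and HSPB1 (178.4) to HSPA1A (135.1), BAG3 (106.9), HSPA1B (106), HSPH1 (34.4), HSPB8 (31.0) and DNAJB1 (28.2). Libraries overlapped between HSPA8 and HSP90AA1, between HSPB1 and HSPA1A, among HSPA1A, BAG3 and HSPA1B, and among HSPH1, HSPB8 and DNAJB1. Within each of the 3 libraries, however, HSPA8 exceeded HSP90AA1, HSPB1 exceeded HSPA1A, and HSPA1A exceeded both BAG3 and HSPA1B, while the order of BAG3 and HSPA1B and that of HSPH1, HSPB8 and DNAJB1 varied between libraries. Per canonical transcript DNAJB1 (102.9) came just after HSPA1B (106), and HSPB8 (59.7) and HSPH1 (55.0) were the lowest. After ISP-I, HSPB8 was the fourth of the 10 in H460 (169.5 FPKM), exceeding HSP90AA1 (mean 324.3) in the third library, and HSPA1A and HSPA1B were the lowest (12.2 and 11.8), in an order that varied between libraries. Per canonical transcript HSPB8 (326.1) was again the fourth and HSPA1A and HSPA1B the lowest, and HSPB1 (155.3) came before BAG3 (99.9).

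In A549 controls HSP90AB1, HSP90AA1 and HSPA8 led per listed length (772, 527.1 and 449.2 FPKM), and HSPB8 was the lowest (5.77). HSP90AA1 exceeded HSPA8 in 2 of the 3 libraries and lay below it in the third. Divided by the length of the canonical transcript, HSPA8 (962) came before HSP90AB1 (900.4), and DNAJB1, whose listed length is 8188 bases against 2242 in its canonical transcript, moved from the ninth place to the fifth (115.4). After ISP-I, HSPB8 (20.6), HSPA1B (21.8) and DNAJB1 (20.1) overlapped at the low end of A549 per listed length, in an order that varied between libraries. Per canonical transcript HSPA8 (807.5) came before HSP90AB1 (646.9), DNAJB1 (73.2) was the fifth and HSPA1B (21.8) was the lowest.

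Whether the change itself differed between the lines was tested as an interaction over all 12 libraries. HSPA1A, HSPA1B and HSPA8 fell further in H460 than in A549, with differences of -2.03, -2.12 and -1.37 on the log2 scale (limma adjusted p = 0.000353, 2.14e-06 and 9.68e-06), and HSPB8 rose further, by 0.74 (limma adjusted p = 0.00041). DNAJB1 fell less in H460, with a difference of 0.33 (limma adjusted p = 0.0379) that missed the threshold in 7 of 12 fits that left out 1 library. The DNAJB1 difference passed at 0.63 with median-of-ratios scaling (limma adjusted p = 0.00181) and at 0.45 with quantile scaling (limma adjusted p = 0.00652). With voom it passed at 0.65 (limma adjusted p = 0.00151). By the call rule 0 members differed toward higher in H460, where 5.93% of 13953 genes did, and 3 toward lower, where 10.1% did. Without the fold limit, 2 were higher (18.6% of all genes) and 3 were lower (34.7%). With median-of-ratios scaling, all genes called split into 9.30% higher and 5.91% lower, and the HSP70 differences were -1.73, -1.83 and -1.06.

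For the other 5 members the difference between the lines did not pass. HSPB1 had a difference of -0.63 (limma adjusted p = 0.069), which was -0.91 (limma adjusted p = 0.000122) without the third H460 ISP-I library and passed without the third A549 control (-0.73, limma adjusted p = 0.0484) and with quantile scaling (-0.55, limma adjusted p = 0.0386). It was -0.32 (limma adjusted p = 0.368) with median-of-ratios scaling and -0.33 with voom and with the GC trend removed. BAG3 had 0.21 (limma adjusted p = 0.211), which passed with median-of-ratios scaling at 0.52 (limma adjusted p = 0.00939) and with the GC trend removed at 0.48 (limma adjusted p = 0.00308). HSP90AB1, HSPH1 and HSP90AA1 had 0.13, 0.22 and -0.10 (limma adjusted p = 0.537, 0.606 and 0.887). The HSP90AB1 difference was 0.44 with median-of-ratios scaling (limma adjusted p = 0.0527) and with voom, where it passed (limma adjusted p = 0.00871).

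The lines also started from different levels. Untreated H460 had more HSPB8 than untreated A549, by 2.24 on the log2 scale (limma adjusted p = 2.9e-07), and more HSPA1B, by 1.28 (limma adjusted p = 7.58e-06). These 2 members were called higher in H460, where 5.64% of 13532 genes were, and 0 were called lower, where 8.78% were. Without the fold limit, BAG3 (0.89), HSP90AB1 (0.84), HSPA1A (0.82) and HSPA8 (0.50) were also higher in H460, making 6 members against 28.6% of all genes, and HSPB1 was lower (-0.56), 1 member against 31.6%. Their limma adjusted p-values were 4.4e-05, 0.000283, 0.00479, 0.00319 and 0.0025. DNAJB1, HSPH1 and HSP90AA1 differed by -0.16, 0.08 and -0.08 (limma adjusted p = 0.119, 0.753 and 0.85). The control libraries enter both this comparison and the changes after ISP-I.

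The wider chaperone system was read from 10 lists that hold 89 other genes, of which H460 had 9 called higher and 11 called lower, while A549 had 4 and 2. Of all genes tested, 10.5% were called higher and 15.2% lower in H460, and A549 had 4.2% and 3.51%. The H460 counts of listed genes were 15 higher and 7 lower with median-of-ratios scaling. For these lists, rising and falling are counted at a limma adjusted p under 0.05 at any fold, by which 27.6% of all genes rose and 41.5% fell in H460, and 30.5% and 27.0% in A549. Of 6 other cytosolic genes listed under the wider HSP70 family, 1 rose and 4 fell in H460, and 0 rose and 1 fell in A549 (median -0.50 and -0.12). Among those that fell in H460, HSPA1L, HSPA2 and HSPA6 were low even in controls (0.928, 1.02 and 1 FPKM). HSPA14 did not pass in H460 with median-of-ratios scaling (-0.23, limma adjusted p = 0.166). The gene that rose in H460 was HSPA4, from 72.8 ± 10.2 to 131 ± 33 FPKM. HSPA2, a testis-enriched HSP70, was called in A549 from 13.7 ± 0.164 to 4.63 ± 0.0985 FPKM (-1.38, limma adjusted p = 1.85e-06). Of 11 other J-domain genes, 7 rose and 0 fell in H460, and 5 rose and 1 fell in A549 (median 0.61 and 0.32). More genes of the J-domain list rose than fell in both lines under each scaling tried, unlike DNAJB1 itself. The list holds selected J-domain genes and was chosen with earlier results of these data known, so these counts describe the listed genes only.

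DNAJB2, a J-domain protein that sorts ubiquitinated clients to the proteasome, went from 2.81 ± 0.404 to 16.9 ± 2.67 FPKM in H460. In A549 it went from 5.39 ± 0.421 to 21.7 ± 0.917 (log2 2.23 and 1.83, limma adjusted p = 3.36e-06 and 1.11e-06). DNAJB5 rose by 2.02 and 0.83 and DNAJC2, a ribosome-bound chaperone, by 1.59 and 0.69 on the log2 scale. Of 6 exchange factors of the BAG family and HSPBP1, 4 rose and 2 fell in H460, and 3 rose and 1 fell in A549 (median 0.53 and 0.25), with 0 called in either line, or 2 called higher in H460 with median-of-ratios scaling.

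Of 18 HSP90 co-chaperones, 3 rose and 11 fell in H460, and 4 rose and 8 fell in A549 (median -0.60 and -0.09), but with median-of-ratios scaling 6 rose and 6 fell in H460. UNC45A, a myosin chaperone, fell by 1.59 in H460 and 0.41 in A549, and PPP5C, a phosphatase bound to HSP90, by 1.25 and 0.23. TOMM34, which links HSP70 and HSP90 to mitochondrial import, rose from 61.7 ± 3.92 to 164.6 ± 15 FPKM in H460 (1.40) and by 0.52 in A549. AHSA1, the activator of the HSP90 ATPase, fell from 110.3 ± 2.41 to 49.9 ± 9.72 FPKM in H460 (-1.15) and by 0.69 on the log2 scale in A549.

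Of 8 other small heat shock genes, 3 passed the filter in each line. Among these 1 rose and 2 fell in H460, and 0 rose and 2 fell in A549. HSPB9, which rose in H460 and fell in A549, was near the floor. It was at 0.369 and 0.598 FPKM in H460 and at 0.5 and 0.125 in A549 (control and ISP-I). HSPB11 fell in both lines (-0.96 and -0.48). HSPB6 went from 18.3 ± 1.3 to 2.08 ± 0.235 FPKM in H460 (-2.65, limma adjusted p = 6.48e-07) and was near 0 in A549 (0.214 and 0.168 FPKM). Of 14 subunits of the TRiC/CCT chaperonin and prefoldin, which fold actin and tubulin, 0 rose and 7 fell in H460, and 7 rose and 0 fell in A549 (median -0.47 and 0.22), but with median-of-ratios scaling 3 rose and 1 fell in H460 (median -0.20), and with quantile scaling 4 rose and 2 fell in A549. PFDN2 was the 1 gene called there, in A549 (1.09).

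Of the heat shock factors and their binding protein (4 genes), 1 rose and 2 fell in H460, and 2 rose and 1 fell in A549. HSF1 itself went from 17.3 ± 1.44 to 11.7 ± 1.59 FPKM in H460 (-0.53, limma adjusted p = 0.00638, but -0.27 and 0.114 with median-of-ratios scaling) and from 19.4 ± 1.91 to 25.2 ± 1.05 in A549 (0.37, limma adjusted p = 0.00589). The HSF1 change differed between the lines by -0.90 (limma adjusted p = 0.000376). HSF4 fell by 1.48 in H460 and by 0.72 in A549. HSF1 activity, which is set by trimerisation and modification of the protein, was not measured.

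Of 17 further HSF1 target genes, 16 were tested, and 4 rose and 8 fell in H460 while 5 rose and 5 fell in A549 (median -0.39 and -0.13). With median-of-ratios scaling 5 rose and 5 fell in H460 (median -0.18), and with the GC trend removed 5 rose and 8 fell in A549. MRPL18 fell by 1.47 in H460 and rose by 0.36 in A549. DEDD2 rose by 1.25 and 0.74, and HSPE1, the mitochondrial co-chaperonin, fell by 1.25 in H460 and was at -0.10 in A549. HSPE1 levels were low, at 2.98 and 0.675 FPKM in H460 and 0.826 and 0.708 in A549 (control and ISP-I). HSPA1A and HSPA1B, which are not on this list, fell in both lines.

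Of 10 mitochondrial chaperones and proteases, 2 rose and 7 fell in H460, and 3 rose and 1 fell in A549 (median -0.65 and 0.00). LONP1 and CLPP, proteases of the mitochondrial matrix, fell by 1.36 and 1.22 in H460 and were at -0.13 and -0.18 in A549. Of 6 partners of BAG3 and HSPB8, 2 rose and 2 fell in H460, and 2 rose and 1 fell in A549. SQSTM1, the autophagy receptor p62, had 264.7 ± 17.8 FPKM in H460 controls and 1636.1 ± 264 after ISP-I (log2 2.61), and 146.6 ± 8.39 and 904.5 ± 31.8 in A549 (log2 2.62), a rise in each line. The filamin gene FLNC, at under 2 FPKM in every group mean, rose by 0.23 in H460 and by 1.11 in A549.

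**Figure D5:**
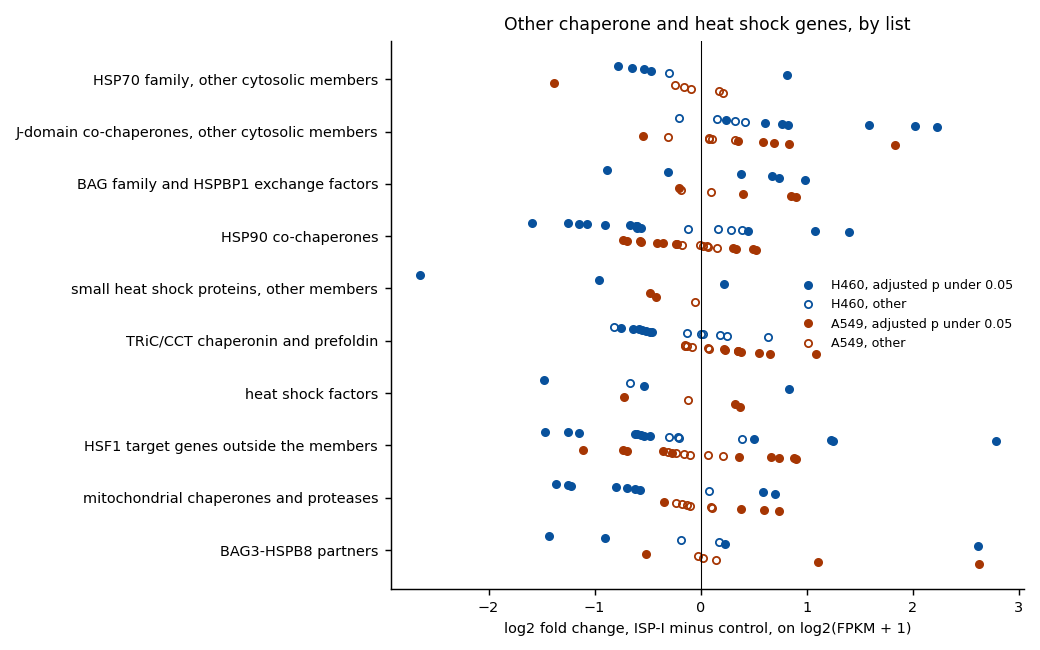
Log2 change after ISP-I of the other chaperone and heat shock genes, by list, in H460 and A549. Filled points have a limma adjusted p under 0.05, and the J-domain genes lie mostly above 0 in both lines while the chaperonin genes that passed lie below 0 in H460 and above 0 in A549, with 3 above and 1 below in H460 under median-of-ratios scaling.

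Over the 12 libraries, the genes whose log2(FPKM + 1) profile was most like that of HSPA1B, of 10583 genes compared, included MTERF2, SKP2, FAM189B and MRI1 (Pearson's r from 0.989 to 0.993). For HSPB8 the 5 most alike were TP53RK, NR0B1, TP53INP2, HLA-B and TNFAIP3 (0.992 to 0.995). For HSP90AA1 they were DEPDC1, PIK3R1, LARS1, ASPM and ARHGAP18 (0.944 to 0.969). These coefficients describe 12 libraries in 4 groups, which share line, treatment and the library trend in GC content, and no other member of the 10 was compared.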

How the data were processed

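RNA of H460 and A549 cells was made into TruSeq libraries and sequenced as 150-base paired reads. The authors used FastQC as a read filter, HISAT2 with the hg38 genome for mapping and HTSeq 0.9.1 for counting. The deposited values are FPKM, the reads of a gene scaled to its listed exon length and to the reads counted in the library, and the deposited table also gives that length. The strand setting and the annotation release are not given in the sources used here. The table held 19973 genes after 4 lines that name no gene, of which 1924 had no reads. FPKM times length was divided by a unit fitted in each library, starting from its smallest value taken as 1 read. This gave whole reads (tolerance 0.1) for 100% of values in every library. The recovered reads were 14225849 to 17874422 in all per library, which sets the counting precision.

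Columns name line and treatment, and each belongs to 1 of the 4 groups of 3. Changes were tested with limma 3.58.1 (R 4.3.3) with a mean-variance trend on log2(FPKM + 1), a pseudocount of 1 that understates changes of low genes, over all genes with mean FPKM of at least 0.1, adjusted by Benjamini-Hochberg. The 6 libraries of a line, all 12 for the difference between lines, or the 6 controls were fitted. The fits were also run on simulated counts with the same extra spread for all genes and no GC trend. That setting differs from these libraries, so it does not show how the fits perform on them. Single ratios used exact two-sided permutation tests. Alternatives were pseudocount 0.1, a minimum of 1 or none, median-of-ratios and quantile scaling, limma voom on the recovered reads, a single fit, leaving out each library, summing HSPA1A and HSPA1B and, chosen after seeing the data, removal of a lowess trend (span 0.3) in transcript GC content. That trend was fitted to each library's deviation from the mean of all 12 libraries. Named genes were all members, up to 4 called genes of each list with the largest change, HSF1, and the 5 most alike profiles of 3 members; a few genes that this rule names are not reported here. The members and lists were chosen with earlier results of these data known. Promoter windows are from RefSeq (GRCh38.p14), where all 10 members matched, with 15 windows.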

Additional observations from a re-analysis of the deposited data

Results flagged for a closer look

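For 5 members the change after ISP-I differed between the 2 lines in a test of the difference itself (H460 minus A549, log2, limma over 12 libraries). HSPA1A differed by -2.03 (limma adjusted p = 0.000353), HSPA1B by -2.12 (2.14e-06) and HSPA8 by -1.37 (9.68e-06), each lying, in all 3 treated libraries of a line, below every control of that line. HSPB8 differed by 0.74 (limma adjusted p = 0.00041), lying, in all 3 treated libraries of a line, above every control of that line. DNAJB1 differed by 0.33 (limma adjusted p = 0.0379), and this value missed the threshold in 7 of the 12 fits that left out 1 library. With median-of-ratios scaling, quantile scaling and voom the DNAJB1 difference was 0.63, 0.45 and 0.65, and it passed with each. The HSPA1A and HSPA1B values come from genes that share much of their sequence.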

How the results depend on the processing

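No paired analysis was possible because the columns carry no replicate numbers of the labels. In both lines, the changes of HSPA1A, HSPA1B, HSPB1 and HSPB8 kept their direction and their side of the adjusted p in every alternative run. So did those of HSPA8 in H460 and of HSP90AB1, DNAJB1 and BAG3 in A549. Signs turned only for values that had missed the threshold. In H460, HSPH1 was 0.16 with median-of-ratios scaling and 0.17 with voom, and BAG3 was 0.09 with both and 0.12 with the GC trend removed. HSPH1 in H460 ranged from -0.34 to 0.12 when 1 library was left out, turning without control 1 (0.00) or ISP-I 3 (0.12). The HSP90AA1 difference between the lines was 0.22 with median-of-ratios scaling and with voom, and -0.42 to 0.29 when 1 library was left out (0.27 without A549 control 3, 0.09 without H460 control 1, 0.29 without H460 ISP-I 3). The same difference for HSPH1 ranged from -0.01 to 0.47, turning without H460 ISP-I 2 (-0.01). Between untreated lines, HSPH1 was 0.00 with quantile scaling and ranged from -0.16 to 0.23 (-0.16 without A549 control 3, -0.03 without H460 control 1), and HSP90AA1 was 0.01 with the GC trend removed and ranged from -0.45 to 0.15 (0.10, 0.12 and 0.15 without A549 control 1, A549 control 2 and H460 control 2). The cause was not tested.

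Members called lower in A549 were 2 with quantile scaling, with voom and without A549 ISP-I 1 (range 1 to 2), since HSPA1B then passed 2-fold, and 7 at any fold. For the difference between lines, members called higher were 1 with median-of-ratios scaling and 2 at any fold, and members passing upward were 4 with voom and 1 to 2 when 1 library was left out. Between untreated lines, 2 members passed as lower with quantile scaling and with the GC trend removed, and at any fold 6 were higher and 1 lower. Of the 89 other listed genes in H460, 15 were called higher and 7 lower with median-of-ratios scaling, 19 higher with voom, 7 lower with the GC trend removed, and 25 higher and 38 lower at any fold. In A549 4 were called lower with pseudocount 0.1, and 31 higher and 18 lower at any fold. When 1 library was left out, 8 to 11 of them were called higher and 10 to 15 lower in H460, with A549 at 4 and 2 in each case. Each member had at least 278 reads in every library.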
